A study of Mus musculus with 28 samples.

Results

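The aminoacyl-tRNA synthetases are the enzymes that join each amino acid to its transfer RNA (tRNA), and their transcripts were followed in the tibialis anterior (TA), a fast-twitch muscle of the hindlimb, of mfn1,2 and wt mice. Members were taken by gene symbol: the amino acid letter with the ending "ars" for a cytosolic enzyme, the ending "ars2" for a mitochondrial enzyme, and Eprs, Farsa, Farsb and Tarsl2, whose names do not follow this form. This gave 38 genes of the 12732 in the table, 21 of them cytosolic and 17 mitochondrial, and each of the 38 was above the minimum level for testing, as were 10819 genes in all. The mfn1,2 mice carried Myl1-Cre with a deleted and a floxed allele of both Mfn1 and Mfn2 (Mfn1 -/flox; Mfn2 -/flox), so that both mitofusins, the proteins that fuse outer mitochondrial membranes, are lost in fast-twitch fibers and not in the other cells of the muscle. The wt mice were littermates with Mfn1 +/flox; Mfn2 +/flox, which also carry a floxed allele of each gene, and no Myl1-Cre is listed for them. In mfn1,2 mice the cells outside fast-twitch fibers also carry a deleted allele of both genes, which wt mice do not. Cre and these deleted alleles therefore differ between the groups along with the loss in fibers. Mice with mDendra flox were used in the cross. Both sexes were included, and the labels give ages of 4, 6, 8 and 10 weeks, with 4 mice of each genotype at the first 3 ages and 2 at 10 weeks, which makes 14 libraries of each genotype, 1 per mouse. The columns of values are numbered within a genotype and carry no age, so the ages are pooled here and any difference between them is part of the spread.

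Each synthetase recognises its own amino acid and the tRNAs that go with it, and the charged tRNA is then carried to the ribosome. Translation in the cytosol and translation inside mitochondria mostly use separate enzymes, both encoded in the nucleus, and the mitochondrial enzymes serve only the few proteins of the mitochondrial genome. Many cytosolic synthetase genes are known targets of ATF4, a transcription factor of the integrated stress response that binds the C/EBP-ATF response element (CARE) in promoters.

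Promoter sequences of the cytosolic members that hold this element are shown first, as the letters at which ATF4 is known to bind. RefSeq promoter windows on GRCm38.p6, from 250 bases before to 50 bases after the start, were matched by symbol for 13 of the 21 cytosolic and 14 of the 17 mitochondrial genes. Those of Cars, Hars, Lars, Mars, Nars, Rars, Vars, Wars, Hars2 and Pars2 were among the windows not matched. The letters TGATGNAA, searched on both strands as the CARE, were found in 5 of the 13 cytosolic windows (38.5%) and in 0 of the 14 mitochondrial genes, against 2.68% of the 8310 tested genes with a window and 4.51% of all 27025 genes in the promoter table. For each of the 5 genes the match nearest to the start is printed along the strand of the gene with 10 bases on either side and the matched letters in capitals, and in 4 of the 5 the motif lies on the other strand and so reads as its reverse complement.
Gars, chr6:55037961-55037988 (+), 30 bases before the start: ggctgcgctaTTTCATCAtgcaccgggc
Aars, chr8:111033841-111033868 (+), 10 bases after the start: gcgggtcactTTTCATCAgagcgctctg
Iars, chr13:49682127-49682154 (+), 8 bases after the start: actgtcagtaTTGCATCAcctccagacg
Tars, chr15:11399656-11399683 (-), 15 bases before the start: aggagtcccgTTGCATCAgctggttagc
Yars, chr4:129189896-129189923 (+), 4 bases after the start: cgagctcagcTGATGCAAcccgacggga
A second motif, that of NRF1 (GCGC, any 2 bases, GCGC, on both strands), a factor known from nuclear genes of mitochondrial proteins, was in 3 of 13 cytosolic windows (Farsb, Kars and Tars) and 2 of 14 mitochondrial genes (Iars2 and Mars2), or 23.1% and 14.3%, against 15.9% of tested genes. These are matches of letters and not measured binding, and nothing about the rise of a gene is read from them: the 5 cytosolic genes with the first motif all rose in mfn1,2 muscle, and so did 5 of the 8 with a window and without it (Eprs, Sars, Farsb, Kars and Dars).

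The deposited values are a normalised expression signal whose smallest steps shrink with gene length, as in FPKM or TPM, so levels can be set side by side between genes, and their depth is unknown. Libraries were rescaled by the median of ratios, and every level below is on that scale, every fold change on log2(value + 0.1) of mfn1,2 over wt. Mfn1 was at 12.9 ± 3.17 in mfn1,2 and 53.0 ± 12.5 in wt libraries (SD, n = 14 each), with no overlap, and fell by 2.04 on the log2 scale (adjusted P = 1.62e-14, limma with Benjamini-Hochberg adjustment). Mfn2 was at 30.6 ± 5.03 in mfn1,2 and 48.0 ± 4.64 in wt libraries, a log2 fold change of −0.66 (adjusted P = 4.59e-09, limma) that became −0.019 on the values as deposited and 0.40 with libraries set to the same total. All 28 libraries clustered with their genotype. The clustering within each genotype was split at its top, and the libraries of the smaller branch are called those that stood apart. They were mfn1,2 library 8 and wt libraries 6, 8, 9 and 13. Such a split is made whatever the data, so the name does not mark them as outliers. Genes of the mitochondrial genome took 24.9 to 35.5% of the signal in mfn1,2 and 49.4 to 71.3% in wt libraries, which moves a scaling to the total: the median log2 fold change of all genes was 0.026 here, 0.64 on the values as deposited and 1.03 at the same total. In bulk muscle, fewer cells of a type and less RNA per cell cannot be told apart.

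Of the 21 cytosolic synthetases, 17 rose in mfn1,2 muscle, 1 fell and 3 did not pass the test (adjusted P under 0.01, limma), while 28.2% of all tested genes rose and 24.9% fell. The same 17 and 1 passed in each of the 28 fits that left out a library. The median log2 fold change was 1.15, with a range of −0.62 to 2.58, against 0.026 over all tested genes. In 13 cytosolic genes the lowest mfn1,2 library was above the highest wt library, as in 6.15% of tested genes, and in 1 all mfn1,2 libraries lay below, as in 5.08% of tested genes. Under the stricter rule of a Bonferroni-adjusted P under 0.01 and a log2 fold change beyond 1 in either direction, 11 cytosolic genes were higher, against 6.02% of tested genes. The summed level of the 21 genes had a lowest, median and highest library of 662.7, 826 and 874 in mfn1,2 and of 282, 308 and 410 in wt muscle, so the groups did not meet, and the ratio of the medians was 2.68.

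**Figure D1:**
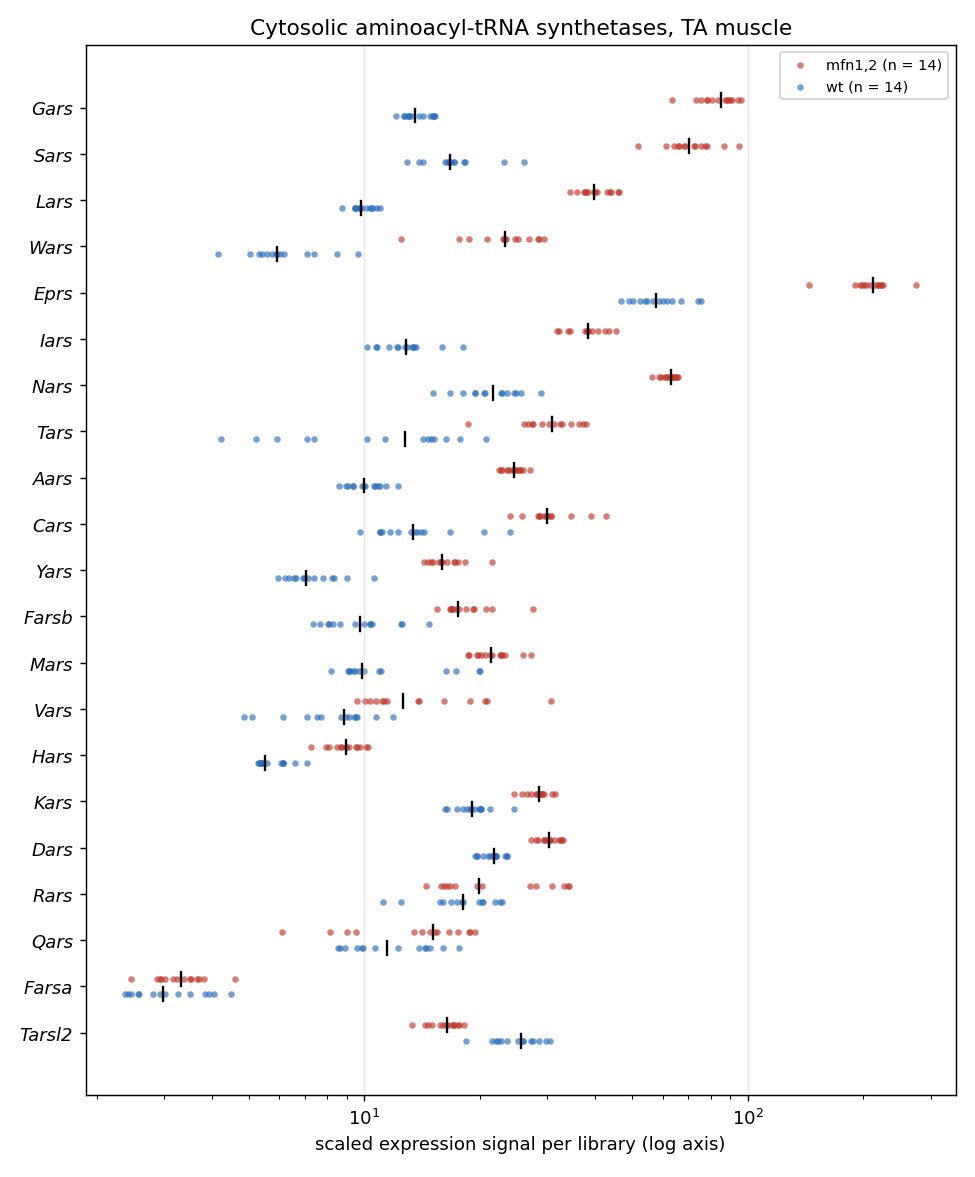
Scaled expression signal of the 21 cytosolic synthetases on a log axis, with a point per library (red, mfn1,2, above; blue, wt, below; 14 each) and a bar at the median, ordered by log2 fold change. The groups do not overlap in 13 genes with higher mfn1,2 values and in Tarsl2 with lower ones, a fall that is not seen on the values as deposited.

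Gars, the glycyl-tRNA synthetase, showed the largest rise among the members. Its lowest, median and highest libraries were 63.5, 85.3 and 95.9 in mfn1,2 and 12.1, 13.6 and 15.3 in wt muscle, a 6.05-fold difference of the means and a log2 fold change of 2.58 (SE 0.059, adjusted P = 2.20e-25, limma). The lowest mfn1,2 value, in the library that stood apart, was still far above the highest wt value. The gene lies at chr6:55038007-55079500 on GRCm38, and from this locus both the cytosolic and the mitochondrial enzyme are made, so it has no separate mitochondrial partner.

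Sars, which charges serine tRNAs and also the tRNA later converted to selenocysteine, was at 51.9, 70.4 and 95.03 (lowest, median, highest) in mfn1,2 and at 12.9, 16.7 and 26.0 in wt muscle. Its log2 fold change was 2.04 (SE 0.091, adjusted P = 4.07e-18, limma). Lars, the leucine enzyme and a known leucine sensor of mTORC1, was at 34.3, 39.8 and 46.1 in mfn1,2 and at 8.72, 9.81 and 10.97 in wt muscle, a log2 fold change of 2.00 (SE 0.051, adjusted P = 3.19e-24, limma). In neither gene did a library of one genotype enter the range of the other. Wars, the tryptophan enzyme, was at 12.5, 23.3 and 29.5 in mfn1,2 and at 4.15, 5.90 and 9.61 in wt muscle, a log2 fold change of 1.88 (adjusted P = 1.38e-14, limma), and again its lowest mfn1,2 value came from the library standing apart.

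Eprs, which holds the glutamate and the proline activity in a single chain, was the most abundant synthetase transcript in both genotypes per length, at 144.6, 212.1 and 274.8 in mfn1,2 and 46.7, 57.7 and 75.6 in wt libraries. Its log2 fold change was 1.84 (SE 0.080, adjusted P = 2.47e-18, limma). Nars, for asparagine, was at a mean of 62.3 ± 2.78 in mfn1,2 and 21.6 ± 3.76 in wt muscle (log2 fold change 1.54). Iars, for isoleucine, was at 38.2 ± 4.08 in mfn1,2 and 12.9 ± 2.09 in wt muscle (1.56), and Aars, for alanine, at 24.5 ± 1.33 in mfn1,2 and 10.1 ± 1.04 in wt muscle (1.27). All of these were without overlap. The authors' counting may have split reads of Iars with a processed pseudogene, Gm4849, that is 96.0% identical over 1656 bases, and Aars shares 1326 exonic bases with Exosc6 on the same strand, so both values carry that doubt.

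Yars, for tyrosine (log2 fold change 1.15), Farsb (0.93), Hars, for histidine (0.62), Kars, for lysine (0.56), and Dars, for aspartate (0.49), completed the 13 genes without overlap, so several rises were small and yet beyond the spread. Dars had 27.2, 30.3 and 33.0 in mfn1,2 and 19.5, 21.8 and 23.6 in wt libraries, the smallest fold change of the 13. Like Gars, Kars makes the cytosolic and the mitochondrial enzyme from the same gene, and its lowest mfn1,2 value of 24.55 was next to its highest wt value of 24.53.

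Cars, for cysteine (log2 fold change 1.16), Mars, for methionine and the initiator tRNA (0.90), Vars, for valine (0.80), and Tars, for threonine (1.499), rose with overlapping groups. Mars had 18.6, 21.4 and 27.2 in mfn1,2 and 8.19, 9.83 and 20.0 in wt libraries. The overlap came from the wt side, where 4 libraries were at 16.3 to 20.0 and the other 10 at 11.1 or below. Its exons share 68 bases with Ddit3 on the opposite strand, a gene that itself rose by 5.27, and whether strand was used in the counting is not given in the sources used here. Vars was uneven on the mfn1,2 side instead, with 9.54, 12.6 and 30.6 against 4.85, 8.83 and 11.9 in wt muscle (adjusted P = 7.65e-05, limma). The highest wt library was above 7 of the 14 mfn1,2 libraries.

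Rars, Qars and Farsa did not pass the test. Rars, for arginine, was at 14.5, 20.0 and 34.1 in mfn1,2 and 11.2, 18.03 and 22.9 in wt muscle (0.31, adjusted P = 0.0583, limma). Its mfn1,2 libraries fell in 2 sets, 6 of them at 27.1 or more and above every wt value, and 8 at 20.2 or less and within the wt range. Qars, for glutamine, was at 6.10, 15.1 and 19.5 in mfn1,2 and 8.55, 11.5 and 17.7 in wt muscle (0.18, adjusted P = 0.329, limma), with 2 mfn1,2 libraries below every wt library and 3 above. Farsa and Farsb encode the alpha and beta subunits of the cytosolic phenylalanine enzyme. Farsb was at 18.7 ± 3.05 in mfn1,2 and 9.88 ± 2.16 in wt muscle, and Farsa at 3.35 ± 0.525 in mfn1,2 and 3.16 ± 0.693 in wt muscle (0.095, adjusted P = 0.412, limma). The difference between the 2 subunits in fold change was not tested.

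Tarsl2, a second cytosolic threonine enzyme at chr7:65644898-65692091, was the member that fell. It shares 120 exonic bases with Tm2d3 on the same strand, whose own log2 fold change was 0.024, so its values carry that doubt. Tarsl2 was at 13.3, 16.4 and 18.1 in mfn1,2 and at 18.4, 25.5 and 30.4 in wt muscle, a log2 fold change of −0.62 (SE 0.068, adjusted P = 3.38e-09, limma). Every mfn1,2 library was below every wt library. This direction depended on the scaling, with 0.015 (adjusted P = 0.878, limma) on the values as deposited and 0.43 (adjusted P = 2.07e-04, limma) at the same total, and in each of the 5 scalings Tarsl2 was below the median of all genes. Tars moved the other way, at 18.6, 30.8 and 37.8 in mfn1,2 and 4.22, 12.7 and 20.7 in wt muscle. The wt libraries were spread widely, with the 4 that stood apart among the lowest 5. The log2 ratio of Tars to Tarsl2 within a library, which no scaling changes beyond the added 0.1, was 0.90 ± 0.29 in mfn1,2 and −1.22 ± 0.57 in wt muscle, a difference of 2.12 (P = 1e-05, the smallest that 100000 resamples can give, 2-sided permutation test). Tars was thus the more abundant of the 2 in every mfn1,2 library and Tarsl2 in every wt library.

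**Figure D2:**
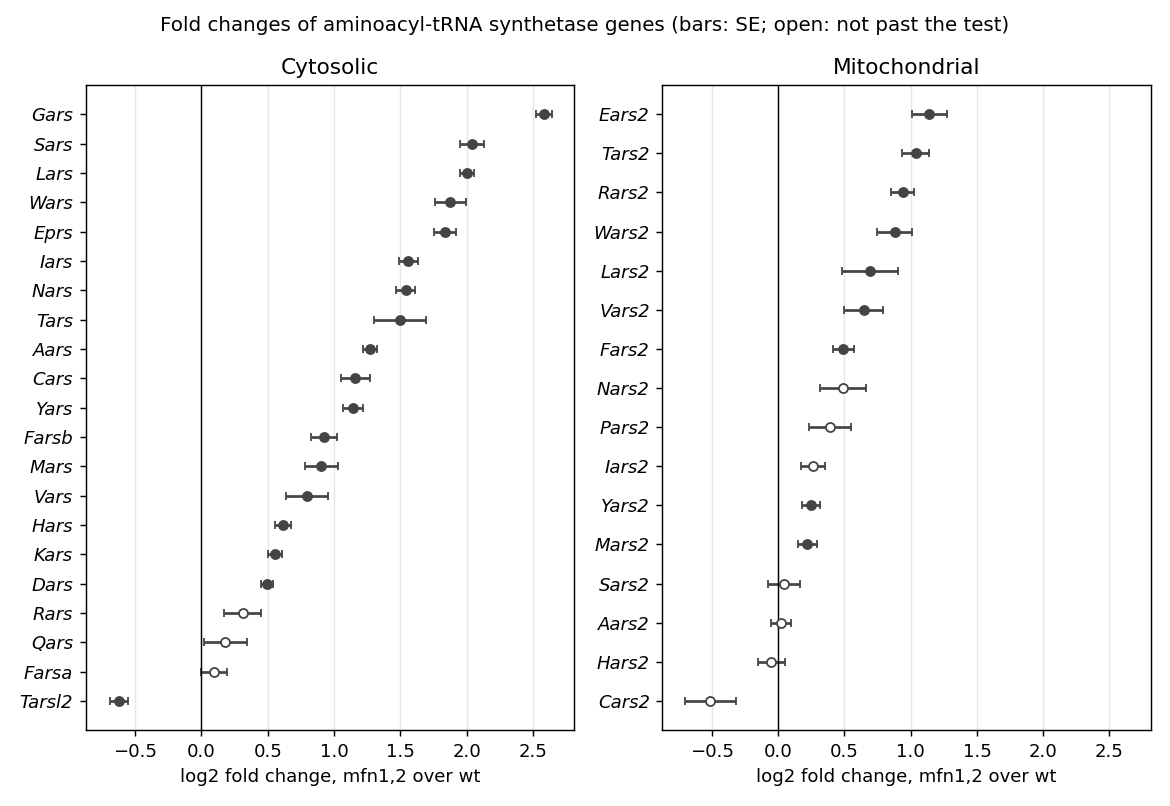
Log2 fold change (mfn1,2 over wt, bars are SE) of the 21 cytosolic (left) and 16 of the 17 mitochondrial synthetases (right), filled where the limma adjusted P was under 0.01 and open where not. Cytosolic values reach 2.58 and mitochondrial values 1.14, and the zero line depends on the scaling.

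The 8 synthetases of the multisynthetase complex (Eprs, Iars, Lars, Mars, Qars, Kars, Rars and Dars), a large particle in the cytosol that holds these enzymes together, had a median log2 fold change of 0.73 with 6 risen. The 12 other cytosolic genes without Tarsl2 had a median of 1.22 with 11 risen. Inside the complex the values ran from 0.18 for Qars to 2.00 for Lars, so its members did not move by a common factor. Its 3 scaffold proteins also differed. Aimp2, the scaffold on which the complex assembles, was at 3.83, 4.78 and 6.97 in mfn1,2 and 15.9, 22.4 and 42.2 in wt muscle, with all 14 mfn1,2 libraries below all wt libraries and a log2 fold change of −2.20 (SE 0.12, adjusted P = 7.52e-16, limma). It remained lower at −1.15 (adjusted P = 5.06e-06, limma) under scaling to the same total. Eef1e1, known as the p18 scaffold, rose by 0.44, and Aimp1 was at 31.0 in mfn1,2 and 26.6 in wt muscle on average without passing (adjusted P = 0.0356, limma). Aimp2 shares 487 exonic bases with Eif2ak1 on the opposite strand, whose own log2 fold change was −0.45.

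**Figure D3:**
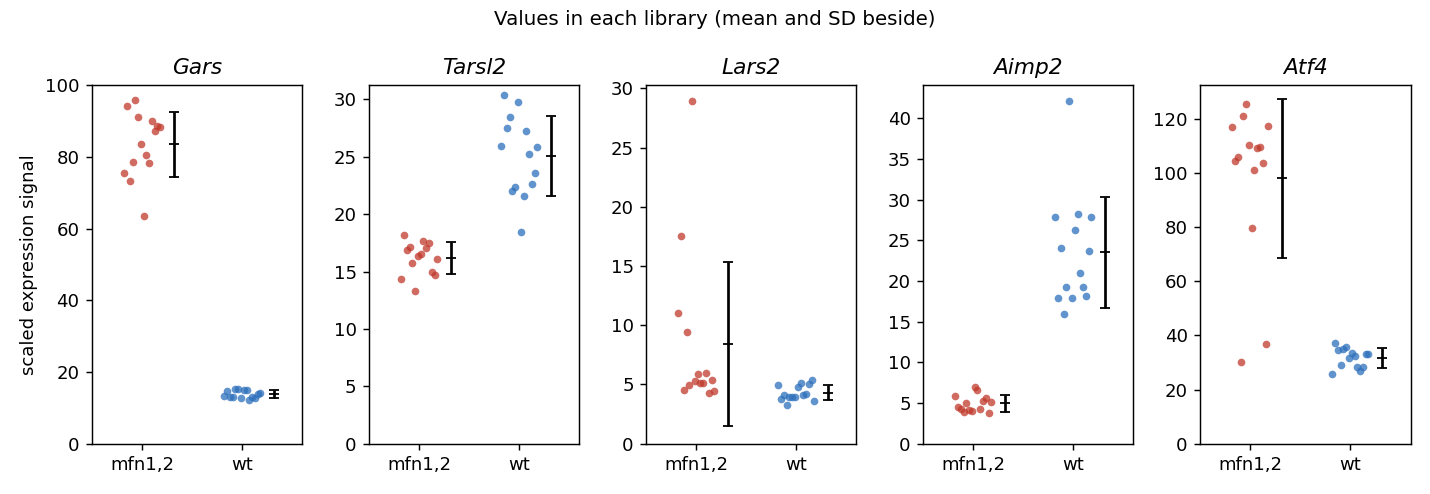
Scaled expression signal in each library for Gars, Tarsl2, Lars2, Aimp2 and Atf4, each panel with mfn1,2 (red, left) and wt (blue, right) and the mean and SD of 14 libraries beside the points. Gars is higher and Aimp2 lower in all mfn1,2 libraries, Lars2 is high in 4 mfn1,2 libraries, and Atf4 lies in the wt range in 2; the Tarsl2 difference is not seen on the values as deposited.

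The mitochondrial synthetases had smaller fold changes. Of the 17, 9 rose, 0 fell and 8 did not pass (limma, background shares as above), 2 genes were without overlap (Rars2 and Tars2), and 2 passed the stricter rule (Tars2 and Ears2). At an unadjusted P under 0.05, 1 of them, Cars2, was lower. The median log2 fold change was 0.39, with a range of −0.51 to 1.14. Their transcripts were also rarer, with gene means of 0.796 to 10.9 in mfn1,2 and 0.424 to 9.06 in wt muscle, against 3.35 to 210.2 in mfn1,2 and 3.16 to 58.8 in wt muscle for the cytosolic genes. The summed level of the 17 was 63.2, 72.8 and 86.2 (lowest, median, highest) in mfn1,2 and 46.1, 50.4 and 55.7 in wt libraries, a ratio of medians of 1.45. Without the 5 libraries that stood apart, 8 rose, with Nars2 gained and Lars2 and Mars2 lost.

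**Figure D4:**
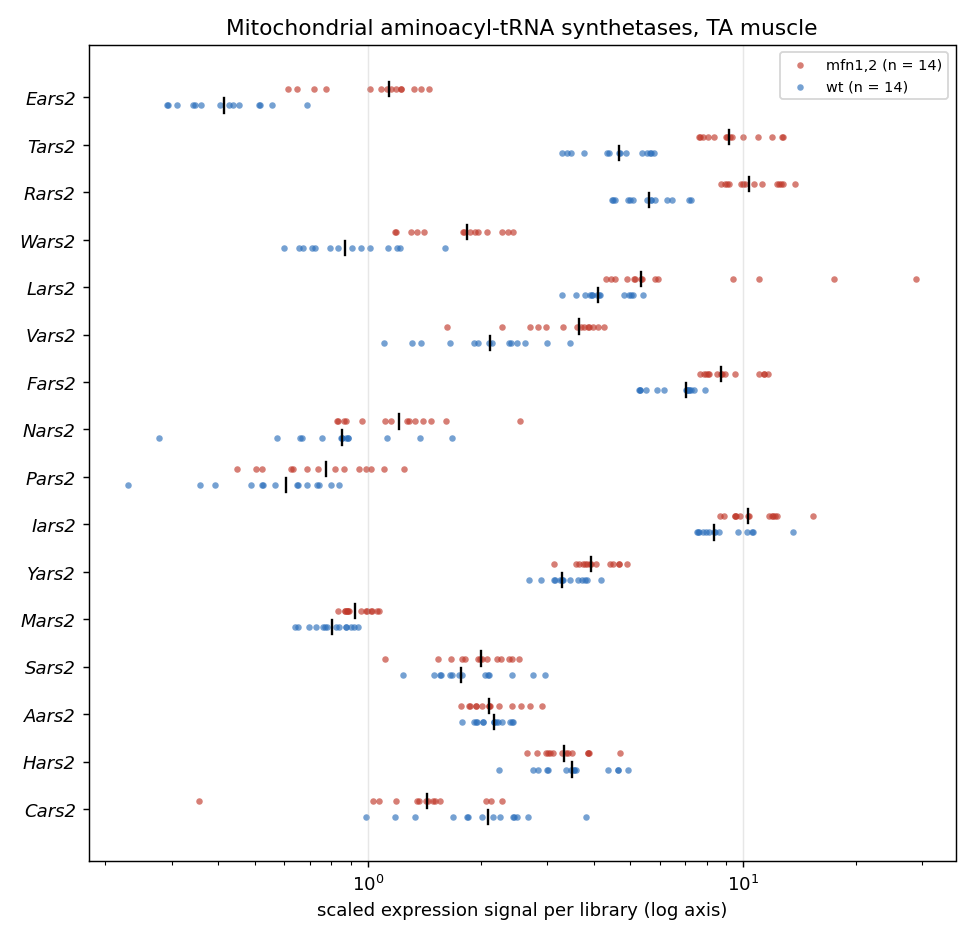
Scaled expression signal of 16 of the 17 mitochondrial synthetases on a log axis, with a point per library (red, mfn1,2, above; blue, wt, below; 14 each) and a bar at the median, ordered by log2 fold change. Only Tars2 and Rars2 are without overlap, and 4 mfn1,2 libraries of Lars2 lie between 9.41 and 28.9.

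Tars2, for threonine, was at 7.62, 9.16 and 12.8 in mfn1,2 and 3.30, 4.68 and 5.79 in wt muscle (log2 fold change 1.04, adjusted P = 3.56e-10, limma). Rars2, for arginine, was at 8.73, 10.4 and 13.7 in mfn1,2 and 4.47, 5.62 and 7.26 in wt muscle (0.94, adjusted P = 9.26e-11, limma). In both, the lowest mfn1,2 library exceeded the highest wt library. Ears2, for glutamate, had a high fold change at a low level, 0.612, 1.14 and 1.45 in mfn1,2 and 0.292, 0.415 and 0.688 in wt muscle (1.14, adjusted P = 1.41e-08, limma), with 12 of 14 mfn1,2 libraries above all wt libraries. Its wt mean of 0.424 was under the minimum for testing, which it reached through its mfn1,2 level, and with 1 in place of 0.1 added its log2 fold change was 0.53.

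Wars2, for tryptophan (0.88), Vars2, for valine (0.65), Fars2, for phenylalanine (0.49), Yars2, for tyrosine (0.25), and Mars2, for methionine (0.22), also rose, with overlap. With upper quartile scaling neither Yars2 (0.17, adjusted P = 0.0408, limma) nor Mars2 (0.15, adjusted P = 0.112, limma) passed. Mars2 was close to the threshold (adjusted P = 0.00951, limma), and leaving out any of 19 of the 28 libraries took it over the threshold. Fars2 shares 501 exonic bases with Nrn1 and 115 with Lyrm4, both on the opposite strand. Lyrm4 itself rose by 1.00 on the log2 scale, and Nrn1 was not followed here.

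Lars2, for leucine, rose by 0.69 (SE 0.21, adjusted P = 0.00568, limma), but this rested on a few libraries. It was at 4.31, 5.36 and 28.9 in mfn1,2 and 3.29, 4.11 and 5.41 in wt muscle. In mfn1,2, 4 libraries were at 9.41, 11.1, 17.5 and 28.9, and the other 10 at 5.94 or less. The call was lost without mfn1,2 library 1, 2 or 4, with upper quartile scaling (0.62, adjusted P = 0.0144, limma) and without the libraries standing apart (0.78, adjusted P = 0.0104, limma). The library with 28.9 was number 6, which was also the lowest of its group in 5 cytosolic and 5 mitochondrial members, Cars2 among them at 0.355.

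Nars2, Pars2 and Iars2 had log2 fold changes of 0.49, 0.39 and 0.26 with adjusted P of 0.0161, 0.0316 and 0.0116 (limma), none past the threshold. Without the libraries standing apart Nars2 passed (0.73, adjusted P = 8.05e-04, limma). With a minimum mean of 5 Iars2 just passed (adjusted P = 0.00997, limma). Iars2 shares 2034 exonic bases with Rab3gap2 on the opposite strand, which rose. Sars2, Aars2 and Hars2 had 0.043, 0.021 and −0.052, with signs that changed between scalings, and their groups covered nearly the same range, for Aars2 1.77 to 2.92 in mfn1,2 and 1.78 to 2.43 in wt muscle. Cars2, for cysteine, had −0.51 (adjusted P = 0.0219, limma), at 0.355, 1.44 and 2.29 in mfn1,2 and 0.990, 2.09 and 3.82 in wt muscle. Hars2 and Hars share 195 exonic bases on opposite strands, and Cars2 shares 422 with Naxd, which rose by 0.37.

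To set the compartments against each other without a scaling between libraries, the log2 ratio of the cytosolic to the mitochondrial gene of the same amino acid was taken within each library. There were 18 such pairs over the 17 mitochondrial genes, since Eprs pairs with Ears2 and Pars2, and Farsa and Farsb with Fars2; Gars and Kars serve both compartments and mitochondria make glutaminyl-tRNA by another route, so these and Qars have none. The ratio was higher in mfn1,2 in 13 pairs and lower in 2 at an unadjusted P under 0.01, and 3 did not pass (2-sided permutation tests with 100000 resamples). The pairs of Eprs and of Fars2 share a gene and are not independent of each other.

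In 5 pairs no mfn1,2 library overlapped with wt. Sars over Sars2 was 5.12 ± 0.285 in mfn1,2 and 3.12 ± 0.498 in wt libraries (SD, n = 14 each), a difference of 2.00 (SE 0.15, P = 1e-05, permutation test). The differences for Eprs over Pars2, Iars over Iars2, Aars over Aars2 and Yars over Yars2 were 1.45, 1.298, 1.25 and 0.90, each at the same smallest P. Cars over Cars2 differed by 1.67 and Lars over Lars2 by 1.31 with overlap. For leucine, the 4 libraries with high Lars2 were the 4 lowest of mfn1,2, and the lowest, at 0.48, was below all wt libraries.

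The 2 pairs that went the other way were Rars over Rars2, at 1.03 ± 0.479 in mfn1,2 and 1.66 ± 0.296 in wt muscle (−0.63, P = 0.0003, permutation test), and Farsa over Fars2, at −1.44 ± 0.278 in mfn1,2 and −1.04 ± 0.316 in wt muscle (−0.40, P = 0.00192, permutation test). Farsa was the cytosolic gene that was rarer than its mitochondrial partner in every library of both genotypes. Tars over Tars2 (0.46, P = 0.0747) and Vars over Vars2 (0.15, P = 0.494, permutation tests) were among those that did not pass. Over all members, the cytosolic sum divided by the mitochondrial sum was 9.49, 10.98 and 12.6 (lowest, median, highest) in mfn1,2 and 5.19, 6.12 and 7.56 in wt libraries, without overlap. This cytosolic sum includes Gars and Kars, which serve both compartments. Abundant genes weigh most in it, such as Eprs and Gars, at means of 210.2 and 83.5 in mfn1,2 and 58.8 and 13.8 in wt muscle.

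**Figure D5:**
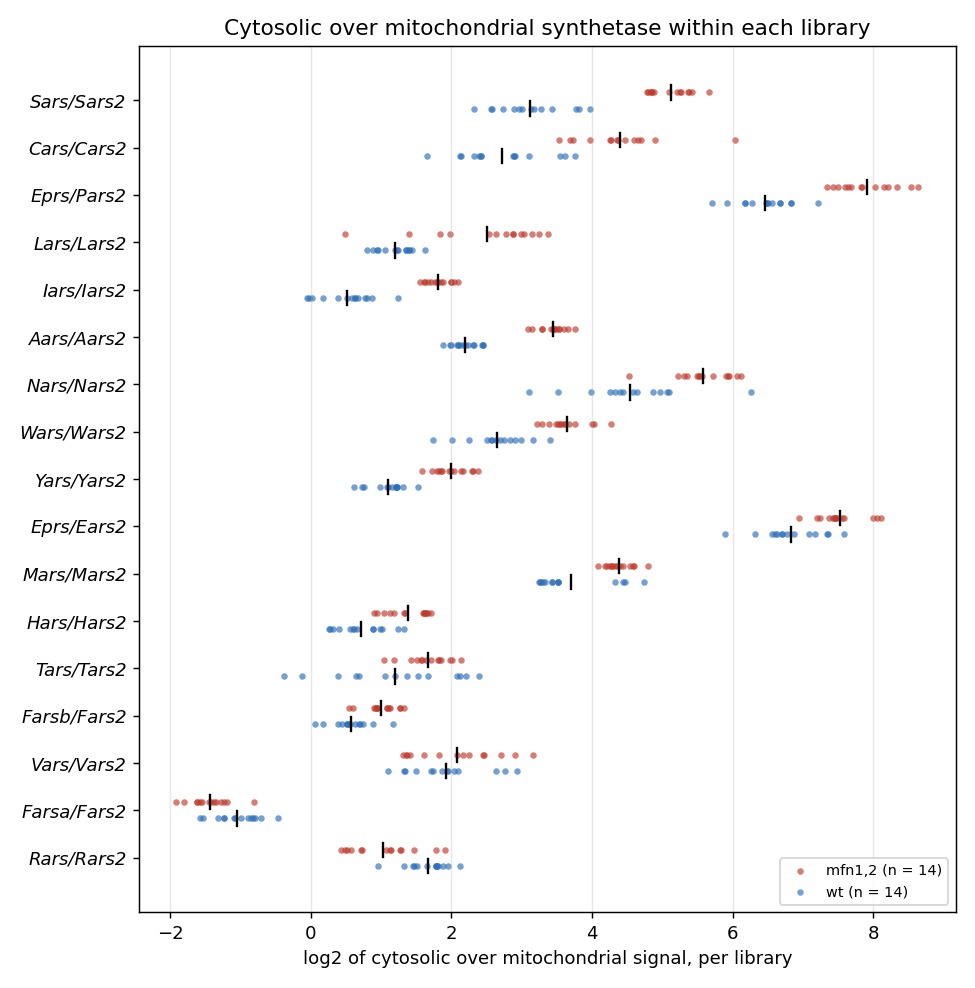
Log2 ratio of the cytosolic to the mitochondrial synthetase of the same amino acid in each library (red, mfn1,2, above; blue, wt, below; 14 each; bar, mean), ordered by the difference between genotypes, for 17 of the 18 pairs. The ratio is higher in mfn1,2 in 13 of them, and lower for Rars over Rars2 and Farsa over Fars2.

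Genes that act beside the synthetases were followed in lists of companions, with the same fit and background shares. Of 6 tested carriers and exporters of tRNA, 4 rose: Eef1a1 (log2 fold change 1.82), the factor that brings charged tRNAs to the cytosolic ribosome, at 157.3 in mfn1,2 and 44.2 in wt muscle on average; Xpot (1.53), the tRNA exporter of the nucleus; Xpo5 (0.81); and Tsfm (0.46), the exchange factor of mitochondrial elongation. Eef1a2, the muscle form of the carrier, was at 391.5 in mfn1,2 and 363.1 in wt muscle (0.11, adjusted P = 0.0976, limma), and Tufm, the mitochondrial carrier, had −0.022, neither past the test. Of the 4 tested genes for glutaminyl-tRNA and formylmethionyl-tRNA in mitochondria, Gatb rose (0.77), and Qrsl1, Gatc and Mtfmt had −0.096, 0.043 and 0.015.

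Of 19 tested genes of tRNA end processing and splicing 10 rose, led by Elac2 (1.16), which cuts the 3′ trailer, Tsen54 (1.04), Hsd17b10 (1.00), a subunit of mitochondrial RNase P, Rpp40 (0.84) and Trnt1 (0.83), which adds the CCA end. Tsen54 and Rpp40 were rare and overlapped, with means of 0.996 and 1.37 in mfn1,2 and 0.503 and 0.626 in wt muscle. The lowest wt value of Tsen54 was 0, so its fold change depends on the added 0.1. Rpp21 fell by 0.67, with −0.047 on the values as deposited and 0.36 at the same total. In proofreading and deacylation, 3 of 5 rose, Dtd1 (0.72), Ptrh2 (0.71) and Dtd2 (0.42). Dtd2 did not pass with upper quartile scaling (0.35, adjusted P = 0.0111, limma) or without the libraries standing apart (0.30, adjusted P = 0.0402, limma). In selenocysteine charging, Eefsec rose (0.59) and the selenophosphate synthetases Sephs1 and Sephs2 fell by 0.54 and 0.51, falls that were 0.064 and 0.11 on the values as deposited and 0.46 and 0.52 at the same total.

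The tRNAs that the mitochondrial enzymes charge are encoded in the mitochondrial genome, and most of those in the table were lower in mfn1,2 muscle. The table holds 9 of the 22 listed. Of these 9, all tested, 7 fell and 0 rose, mt-Te by 3.16, mt-Ti by 2.02, mt-Tw by 1.81, mt-Tp by 1.79 and mt-Tm by 1.65 on the log2 scale. The values are signal over these gene models in total RNA. Whether it came from mature tRNAs or from longer mitochondrial transcripts was not tested, so no level of chargeable tRNA is read from it. Of these tRNAs mt-Te was at 96.1 in mfn1,2 and 980.0 in wt muscle on average, with no overlap. On the values as deposited 5 fell, and at the same total 4 fell and 1 rose. The share of signal from the mitochondrial genome moved with them, as given above, and its part in their values was not tested.

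Of the 9 tested genes of the eIF2 kinases and their partners, 3 rose and 2 fell, with a median log2 fold change of 0.079. These counts are near the shares of all tested genes, 28.2% risen and 24.9% fallen, so the list as a whole did not stand out. Ppp1r15a, an eIF2 phosphatase subunit, rose by 2.84, Atf4 by 1.53 and Gcn1l1, the partner of the kinase that senses uncharged tRNA, by 0.51. That kinase, Eif2ak4, was at 0.816 in mfn1,2 and 0.930 in wt muscle (−0.089, adjusted P = 0.674, limma). Eif2ak1 and Eif2ak2 fell by 0.45 and 0.44, which were 0.18 and 0.17 on the values as deposited and 0.60 and 0.57 at the same total. Atf4 itself was at 30.0, 107.7 and 125.6 in mfn1,2 and 25.7, 32.8 and 37.2 in wt muscle. Of the mfn1,2 libraries, numbers 4 and 13 had 30.0 and 36.9, within the wt range, and the next lowest had 79.7. In these 2 libraries Gars was at 78.5 and 88.7, and Sars at 61.3 and 95.03, all above every wt library. For both genes this held in every mfn1,2 library, so it is not particular to these 2. Whether synthetase levels followed Atf4 between libraries was not tested. Of 18 further ATF4 targets 15 rose, among them Mthfd2, at 87.5 in mfn1,2 and 2.25 in wt muscle on average (log2 fold change 5.28), and Ddit3, at 92.0 in mfn1,2 and 3.72 in wt muscle (5.27). Those that did not pass were Psph (0.24), Vldlr (0.23) and Ddit4, which went the other way (−0.45, adjusted P = 0.0372, limma). Trib3, Asns and Psat1 averaged 30.1, 29.4 and 10.4 in mfn1,2 and 0.108, 0.457 and 0.356 in wt muscle, where some libraries were at 0. These 3 reached the minimum for testing through their mfn1,2 level, and their fold changes depend on the added 0.1 and are not given. The same held for Slc7a5, Phgdh, Sesn2 and Slc7a11, with wt means of 0.359, 0.236, 0.167 and 0.089. All of these genes could be among the 15 only through their high mfn1,2 level.

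Markers of some other cells moved with genotype as well. Of the tested markers, 7 of 8 endothelial, 6 of 7 macrophage and 4 of 6 pericyte or smooth muscle genes, 2 of 8 fibroblast genes and the lymphocyte gene Ptprc fell and none of these rose, while both tested satellite cell genes (Cdh15 and Itga7) and 1 of 3 Schwann cell genes rose. Of 11 myofiber markers 2 rose and 7 fell, with a summed level of 19864 to 33460 in mfn1,2 and 23484 to 54682 in wt libraries, and none of 4 adipocyte or 5 red blood cell markers passed. Of all tested genes 28.2% rose and 24.9% fell, so 2 of 8 fibroblast genes fallen and 2 of 11 myofiber markers risen are near or under these shares. The marker calls are on the median of ratios alone, and the markers were not followed in the other scalings. Of all tested genes 2696 fell here, 552 on the values as deposited and 298 at the same total, so the falls of markers may depend on the scaling. The summed endothelial level was 45.5 to 61.0 in mfn1,2 and 69.4 to 104.0 in wt libraries, the macrophage level 8.13 to 23.4 in mfn1,2 and 11.8 to 36.2 in wt libraries, and the satellite cell level 12.98 to 18.6 in mfn1,2 and 8.46 to 13.5 in wt libraries. Most of the satellite cell level was Itga7, at 12.4 in mfn1,2 and 8.29 in wt muscle on average, while Pax7, their defining marker, was below the minimum for testing at 0.201 in mfn1,2 and 0.413 in wt muscle. The table holds 1 of the 7 lymphocyte and 3 of the 6 satellite cell markers listed, none of the markers in it was at 0 in every library, and the part of these cells in the synthetase values was not tested.

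Particular libraries recurred at the ends of the ranges. The mfn1,2 library that stood apart was the lowest of its group in 8 of the 21 cytosolic genes. Of the wt libraries, number 2 was the highest of its group in 11 of the 21, and it also had the smallest scaling factor (0.484) and the largest share of signal from the mitochondrial genome (71.3%). Without the 5 libraries standing apart, 17 cytosolic genes rose and 1 fell. In each of the 5 scalings, 20 of the 21 cytosolic and 14 of the 17 mitochondrial genes were above the median of all genes, and the cytosolic median exceeded it by 1.12 to 1.16 and the mitochondrial median by 0.31 to 0.37.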

How the data were processed

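Total RNA of TA muscle from 28 mice, 14 of each genotype, was sequenced by the study with a stranded total RNA kit and reads of 75 bases. Tools named in the processing notes of the submitters are Trim Galore, HISAT2, featureCounts and DESeq2, with the mm9 build and no versions. The authors deposited a table of 12732 genes whose values are a normalised expression signal: 99.9994% of values above 0 are not whole numbers (tolerance 1e-06), and the smallest value of a gene falls with its exonic length (log-log slope −1.02 over 262 genes), so the values are not counts. The exact unit is not given in the sources used here, and with depth unknown no counting interval is given. No 2 libraries shared more than 0.00813% of their values.

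Libraries were divided by the median of their ratios to the geometric mean over 11693 genes above 0 in every library. Genes with a mean of at least 0.5 (10819) were tested on log2(value + 0.1) with limma 3.58.1 in R 4.3.3 (mean-variance trend, genotype only), Benjamini-Hochberg adjusted over all 10819, and a gene rose or fell at adjusted P under 0.01. P values measure the spread between these mice. Ratios within a library were compared by a 2-sided permutation test (100000 resamples, NumPy 2.4.6). Libraries were clustered with SciPy 1.17.1. The fit was tested on simulated data. Every synthetase is named, and of each companion list at most 5 genes that passed, by size of the change, with members that went against them. Further ATF4 targets that rose are named only where their wt level was under the minimum for testing. The members, lists and tests were chosen with earlier results of these data known.

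Motifs were searched in RefSeq promoters (GRCm38.p6) and positions and overlaps taken from GENCODE M21 (GRCm38), for names and sequence only, since the files use mm9; near-identical copies were sought with BLAST 2.17.0. Alternatives were 4 other scalings, 2 pseudocounts, 2 filters, robust variance, 2 other thresholds, each library left out, and the libraries standing apart left out. Proteins and the ages were not used here, and 1 mitochondrial member, which is in the counts, and 1 promoter match are not reported here.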

Additional observations from a re-analysis of the deposited data

How the results depend on the processing

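The count of cytosolic synthetases that rose stayed between 17 and 21 in the other scalings, pseudocounts, filters and variance settings, at 17 in every fit without a single library, and was 11 under the Bonferroni rule. The cytosolic fall of Tarsl2 was a count of 0 on the values as deposited (log2 fold change 0.015), at the same total (0.43) and under the Bonferroni rule. Mitochondrial synthetases that rose were 16 on the values as deposited, 16 at the same total, 5 with a minimum mean of 5, which tested fewer genes, 6 with the upper quartile, 12 with equal totals without mitochondrially encoded genes, 13 at an adjusted P under 0.05 and 2 under the Bonferroni rule, and 8 to 10 without a single library. Mitochondrial synthetases that fell were 1 (Cars2) at an adjusted P under 0.05 and 0 to 1 without a single library, the 1 being Cars2 without wt library 12. Companion genes that rose, 38, were 62 on the values as deposited, 67 at the same total and 21 with a minimum mean of 5, and those that fell, 13, were 6 and 5 in the first 2 of these settings. All genes that rose were 6723, 8536 and 1719 and all that fell 552, 298 and 1155 in the same 3 settings. Mfn2 was −0.019 on the values as deposited and 0.40 at the same total. Log2 fold changes that changed sign were Aars2, −0.055 with the upper quartile, −0.011 without the libraries standing apart and −0.011 to 0.042 without a single library; Sars2, −0.033 with the upper quartile and −0.00070 to 0.10 without a single library; Cars2, 0.084 as deposited and 0.47 with equal totals; and Hars2, 0.57 as deposited, 0.97 at the same total, 0.088 at the same total without mitochondrially encoded genes and 0.018 without the libraries standing apart. Iars2 passed in 6 of the 28 fits without a single library. The higher ratio in 13 pairs was also found with the other pseudocounts and without the libraries standing apart. No paired analysis was possible because the columns carry neither the replicate numbers nor the ages of the labels. Depth is unknown, so how far it limits the mitochondrial genes below a level of 1 cannot be given.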
